A study of Mus musculus with 2 samples.

Results

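The 10 genes described here are Clu, Spp1, Msln, Scara3, Sorbs2, Plet1, Nupr1, Sfn, Ly6g6c and Rdh10, out of 27998 genes in the count matrices of a mouse lung single-cell study. They were chosen by symbol because their RNA was far more abundant in the epithelium of a mutant lung than in that of a control lung. The levels that follow for that contrast are therefore a description of how the genes were chosen, with no test. The rule gave no numerical threshold. In the alveolar type 1 compartment defined below, the smallest fold among the members was that of Sfn (2.52-fold), and the next was that of Msln (13.2-fold). Over all epithelial cells the smallest was that of Nupr1, with a log2 ratio of 0.76, which is under 2-fold.

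The group has 2 secreted proteins, 4 cell surface proteins and 4 proteins that act inside the cell. Clusterin, the product of Clu, is a secreted chaperone that binds misfolded proteins and is raised in many injured epithelia, and osteopontin, the product of Spp1, is a secreted phosphoprotein that binds integrins and Cd44 and is well known from macrophages and from bone. Msln encodes mesothelin, a surface protein of the mesothelium, Scara3 a scavenger receptor linked to oxidative stress, Plet1 a surface protein of epithelial progenitors, and Ly6g6c a member of the Ly6 and uPAR family anchored in the membrane. Sorbs2 encodes an adaptor of the actin cytoskeleton, Nupr1 a small nuclear stress protein, Sfn the epithelial 14-3-3 protein stratifin, and Rdh10 the retinol dehydrogenase that starts retinoic acid synthesis. No injured tissue was part of the design.

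The study asked how the homeobox transcription factor Nkx2-1 governs alveolar type 1 (AT1) cells, the thin cells across which gas is exchanged. It has 1 library from a lung labelled control and 1 from a lung labelled mutant, with Nkx2-1 and Aqp5 named together in the mutant's title. Both came from mice at postnatal day 10, and FACS had been used to purify cells of the epithelium, endothelium, mesenchyme and immune system before 3' single-cell RNA sequencing. The labels do not give the alleles, the number of animals pooled or the genotype of the control. Aqp5 encodes a water channel of AT1 cells, and recombinase alleles at this locus have been widely used to target them. With 1 library per group there is no replicate check and no test, and genotype and library cannot be told apart. Intervals are exact 95% intervals, and the upper limit given for a count of 0 is that of 3 counts, both for counting error only.

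In all, 29862980 unique molecular identifiers (UMIs) were counted over 4461 control barcodes and 47271104 over 4551 mutant barcodes, with 27 barcode sequences in common. Filters left 3924 cells of the control, 1941 of them epithelial, and 4152 of the mutant, 2502 of them epithelial. Cells were clustered without the 10 genes, and the epithelial cells left after setting aside AT2-like, club-like and ciliated-like clusters are called the AT1 compartment. In the control it had 559 cells with a median of 6512 UMIs, and in the mutant 2222 cells with a median of 12295 UMIs, so the mutant cells were deeper. Most control cells of the compartment (527) lay in an AT1-like cluster, cluster 4, which held 11 mutant cells. Most mutant cells lay in 6 clusters that held no control cell and matched no marker set, so a difference there is also a difference between clusters. The AT1 label thus holds by markers for cluster 4 and for the other cells only by exclusion. The other control cells, 14 in cluster 5 and 18 in cluster 6, had 184830 and 127571 CPM of the AT2 gene Sftpc. The 10 AT1 markers summed to 35571 CPM (counts of a gene per 1000000 counts of the class) in the control compartment and to 3100 CPM in the mutant compartment. Nkx2-1 itself had 485 and 13.9 CPM there, but as the alleles are not given, whether its 3' tags could show the change was not tested.

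The genes lie on 8 chromosomes of mm10, with Clu (chr14:65968483-65981547, plus strand) and Scara3 (chr14:65919394-65953935, minus strand) as the only members close to each other. These neighbours point away from each other with 14548 bases between them. Spp1 lies at chr5:104435118-104441050, Msln at chr17:25748613-25754378, Sorbs2 at chr8:45507788-45827906, Plet1 at chr9:50494525-50505482, Nupr1 at chr7:126623249-126630861, Sfn at chr4:133600556-133602168, Ly6g6c at chr17:35065388-35070050 and Rdh10 at chr1:16105774-16133734. All are annotated as protein-coding. RefSeq promoter windows (GRCm38.p6) were found for 6 of the 10 genes, Spp1, Sorbs2, Plet1, Nupr1, Sfn and Ly6g6c, in 9 windows, and not for Clu, Msln, Scara3 and Rdh10. Each window was read as the 250 bases upstream of a RefSeq start and searched on both strands. The AP-1 site was taken as TGANTCA. An NKX2-1 core was taken as CAAGTG. For the TEAD core the letters were GGAATG, and for the TATA box TATAAA. The matches found do not overlap each other. The 3 windows that held a match are shown, with the matches in capitals.
Spp1, chr5:104434861-104435110, plus strand: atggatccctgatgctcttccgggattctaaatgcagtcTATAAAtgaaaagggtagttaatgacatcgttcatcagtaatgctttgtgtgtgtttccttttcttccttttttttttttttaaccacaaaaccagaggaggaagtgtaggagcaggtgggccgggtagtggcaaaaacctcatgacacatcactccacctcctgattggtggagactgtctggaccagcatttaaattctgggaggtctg
Plet1, chr9:50494275-50494524, plus strand: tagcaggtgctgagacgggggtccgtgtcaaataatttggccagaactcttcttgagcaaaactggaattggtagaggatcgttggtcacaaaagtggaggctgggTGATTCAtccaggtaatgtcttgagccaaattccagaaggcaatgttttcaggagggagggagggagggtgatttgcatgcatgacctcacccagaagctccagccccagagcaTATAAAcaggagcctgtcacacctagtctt
Ly6g6c, chr17:35067075-35067324, plus strand: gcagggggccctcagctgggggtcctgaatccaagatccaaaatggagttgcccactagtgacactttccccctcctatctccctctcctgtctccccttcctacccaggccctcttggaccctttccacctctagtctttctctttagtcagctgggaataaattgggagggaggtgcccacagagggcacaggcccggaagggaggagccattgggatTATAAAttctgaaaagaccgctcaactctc
Plet1 and Ly6g6c each had TATAAA beginning 30 bases before the start, the usual place of a TATA box. In Spp1 it began 211 bases before the start. Plet1 also had TGATTCA, 144 bases before the start. Over 32851 promoter windows of this length TATAAA was in 12.4%, TGANTCA in 6.75%, CAAGTG in 11.6% and GGAATG in 12.6%. CAAGTG and GGAATG were in none of the 9 windows, which says only that these letters are absent there.

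All 10 genes had a higher CPM in the mutant AT1 compartment than in the control one. Clusterin led by level, osteopontin went from no UMI to 549 CPM, and stratifin differed least. All 10 were at least 2-fold higher, as were 21.8% of the 12759 genes that had 20 UMIs or more in the libraries together. By the same measure 12.3% of genes were at least 2-fold lower. For 5 of the 10 (Clu, Spp1, Scara3, Sorbs2 and Plet1) the ratio was at least 100, as it was for 0.282% of genes. Because the genes were chosen on this contrast, nothing is read from these shares. Summed, the 10 genes made up 189 CPM of the control and 11602 CPM of the mutant compartment, the latter being 1.16% of all UMIs there. Their median log2 ratio was 6.58, with genes at 0 taken at their bound, against 0.16 for all genes. Each UMI stands for a 3' tag and is not scaled by gene length.

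**Figure D1:**
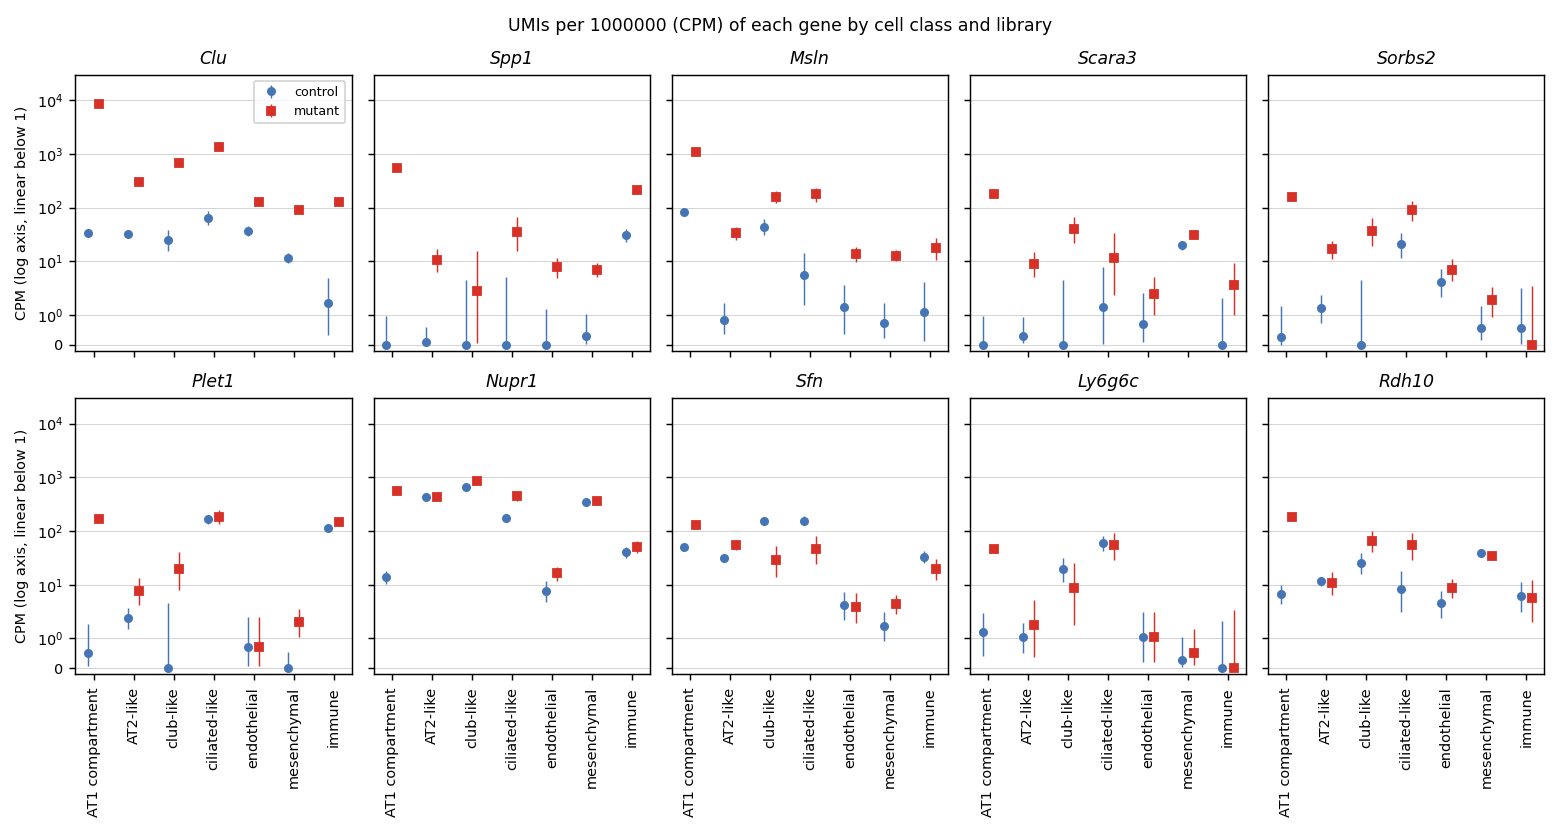
Summed level of each of the 10 genes (vertical axis, CPM, log scale that is linear below 1) in 7 cell classes of the control (circles) and mutant (squares) library, with exact 95% Poisson intervals. Clu has 8567 CPM in the mutant AT1 compartment and 34.3 CPM in the control one, while Nupr1 has nearly the same level in AT2-like and mesenchymal cells of both libraries.

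Of the secreted proteins, clusterin RNA had 34.3 CPM (28.7 to 40.7, 132 UMIs) in the control compartment and 8567 CPM (264131 UMIs) in the mutant compartment, a ratio of 249 (210 to 298). By UMIs it stood at rank 3702 of 13800 detected genes in the control and at rank 4 of 16940 in the mutant. Osteopontin RNA had 0 UMIs in the control compartment and 549 CPM (541 to 558) in the mutant, at least 704-fold higher against a floor of 3 UMIs over the class. After each cell was thinned to 1500 UMIs, 83.2% of mutant and 4.29% of control compartment cells had a Clu UMI, and 28.8% and 0 of 559 had an Spp1 UMI, where 0 of 559 allows a share of up to 0.537% (3 cells). Without thinning the shares were 96.2% and 17.9% for Clu and 52.8% and 0% for Spp1. Endothelial cells, taken as a rough gauge of free RNA in droplets, had a median of 4399 UMIs per control cell and 5274 UMIs per mutant cell. Of them 4.25% and 15.9% had a Clu UMI after thinning, and 0% and 0.835% an Spp1 UMI. The control compartment's share for Clu was thus close to the endothelial share, and the mutant compartment's shares lay above the endothelial ones for both genes. Clu was uneven among the other control classes, with 105 UMIs in 588 endothelial, 80 in 1072 mesenchymal and 3 in 323 immune cells. The endothelial share is therefore no fixed background, and the part of free RNA in the control compartment's Clu was not tested.

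Among the surface proteins, mesothelin RNA was the only one with more than 5 UMIs in the control compartment, at 82.0 CPM (73.2 to 91.5). In the mutant it reached 1079 CPM (1067 to 1091), 13.2 times as much (11.8 to 14.8). It was detected in 10.7% of thinned control cells and 62.2% of thinned mutant cells, against 0.34% and 1.46% of endothelial cells. Scara3 had 0 control UMIs and reached 179 CPM (174 to 184) in mutant cells, at least 229-fold higher. Plet1 had 2 control UMIs (0.520 CPM) and reached 168 CPM in mutant cells, with a ratio of 323 (89.3 to 2666). Ly6g6c was the least abundant member in the mutant, with 1.30 CPM (5 UMIs) and 45.7 CPM, a ratio of 35.1 (on the log2 scale 5.13, interval 3.91 to 6.76). Ly6g6c overlaps G6b on the other strand (1.20 CPM in the mutant), and whether reads were counted by strand is not given in the sources used here.

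Inside the cell, the adaptor gene Sorbs2 had 1 control UMI (0.260 CPM) and reached 155 CPM in mutant cells, with a ratio of 596 (107 to 23533). Rdh10 went from 6.77 CPM (4.42 to 9.91) in control cells to 184 CPM (180 to 189) in mutant cells, a ratio of 27.3 (18.6 to 41.8). Nupr1 had 13.8 CPM (10.3 to 18.0) and 549 CPM (540 to 557), a ratio of 39.8 (30.4 to 53.1). Of the 53 control UMIs of Nupr1, 39 came from 14 cells of cluster 5, which also held 27767 UMIs of the AT2 gene Sftpc, and without that cluster the log2 ratio was 7.18 in place of 5.31. Over all epithelial cells, where AT2-like cells carry Nupr1 in both libraries, it was 0.76, whereas the other 9 genes were at least 2-fold higher there too, as were 22.8% of genes. Sfn had 50.2 CPM (43.4 to 57.8) and 127 CPM (123 to 131), a ratio of 2.52 (2.18 to 2.93). In mutant endothelial cells the thinned shares of the 7 genes other than Clu, Spp1 and Msln ran from 0.209% (Plet1) to 1.67% (Rdh10). In the mutant compartment they ran from 4.41% (Ly6g6c) to 26.6% (Nupr1), and in the control compartment from 0% (Scara3 and Plet1) to 6.26% (Sfn).

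Outside the compartment several of the genes also had RNA in other classes of the control lung. Nupr1 was abundant in AT2-like cells, with 429 CPM (416 to 442) in 1246 control and 433 CPM (402 to 466) in 212 mutant cells, a ratio of 1.01 (0.932 to 1.09). The libraries fill the AT2-like class with different clusters, since 687 and 489 of the control cells lay in clusters 1 and 2 and 169 of the mutant cells in cluster 3. Within cluster 3 (70 control cells) Nupr1 had 356 CPM (314 to 403) and 380 CPM (348 to 415). In mesenchymal cells it had 348 and 367 CPM (ratio 1.05, 0.995 to 1.12) and in club-like cells 656 and 847 CPM. The mutant compartment's 549 CPM therefore lay between the level of AT2-like and that of club-like cells, the surfactant and secretory types. Rdh10 and Scara3 were present in mesenchymal cells of both libraries, at 38.7 and 33.8 CPM for Rdh10 (ratio 0.874, 0.724 to 1.05) and at 19.7 and 31.1 CPM for Scara3 (ratio 1.58, 1.26 to 1.98). Ly6g6c was found in ciliated-like cells, with 59.5 CPM (43.1 to 80.2) in 96 control and 53.8 CPM (29.4 to 90.3) in 43 mutant cells, intervals that overlap. Plet1 had 166 and 185 CPM in ciliated-like cells, a ratio of 1.11 (0.777 to 1.56). Sorbs2 had 20.8 CPM in control and 88.4 CPM in mutant ciliated-like cells, and Msln 43.7 and 159 CPM in club-like cells.

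Spp1 and Plet1 were also genes of alveolar macrophage-like cells, the resident phagocytes of the airspace, with 36 cells in the control and 41 in the mutant. Spp1 was at 256 CPM (187 to 341) in control macrophages and at 901 CPM (778 to 1037) in mutant ones, and 22.2% and 46.3% of these cells had a UMI after thinning. The 2 libraries fill this class with different clusters, since 16 of the control cells lay in a cluster led by inflammatory genes that held no mutant cell. Within the shared cluster, immune cluster 9, Spp1 had 105 CPM (54.1 to 183) in 20 control cells and 901 CPM in 41 mutant cells, and the highest mutant cell held 31 of the 193 UMIs. Plet1 had 707 CPM (562 to 879) and 588 CPM (490 to 700) in the same cells, intervals that overlap. Clu had 103 CPM (64.4 to 155) in the mutant macrophages and 129 CPM (116 to 143) in mutant endothelial cells, intervals that overlap.

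Sfn was the only member with ratios whose interval lay above 1 in some of the 7 classes and below 1 in others. In club-like cells, the secretory cells of the airway, it had 154 CPM (128 to 183) in 40 control and 28.4 CPM (13.6 to 52.2) in 25 mutant cells. In ciliated-like cells it had 156 CPM (129 to 188) and 46.1 CPM (23.8 to 80.6). AT2-like cells had 31.6 CPM (28.2 to 35.4) and 55.2 CPM (44.5 to 67.7), but within their cluster 3 the levels were 52.3 CPM (36.8 to 72.1) and 53.6 CPM (41.9 to 67.4), intervals that overlap. So the airway classes had the higher Sfn level in the control, and the AT1 compartment in the mutant. The difference between classes was not tested.

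Clu was higher in the mutant in each of the other 6 classes as well. It had 294 CPM in mutant against 31.6 CPM in control AT2-like cells, 668 against 25.5 CPM in club-like, 1326 against 63.7 CPM in ciliated-like, 129 against 36.8 CPM in endothelial, 88.4 against 11.6 CPM in mesenchymal and 128 against 1.68 CPM in immune cells. Within cluster 3 of the AT2-like cells it had 318 CPM (288 to 349) in mutant and 50.9 CPM (35.7 to 70.5) in control cells. These levels were 6.46-fold to 96.9-fold below that of the mutant compartment. Beside 100 Clu UMIs, the mutant compartment had 12.6 Msln and 6.41 Spp1 UMIs. The Msln value was 10.7 in endothelial, 11.2 in AT2-like, 13.3 in ciliated-like, 13.7 in immune and 14.4 in mesenchymal cells of the mutant, and 23.8 in its club-like cells. The Spp1 value was less even, with 6.01 in endothelial, 7.88 in mesenchymal, 3.67 in AT2-like and 2.61 in ciliated-like cells, 0.426 (1 UMI) in club-like cells and 167 in immune cells. The part of free RNA in the levels outside the compartment was not tested.

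Within the mutant compartment the 10 genes were not at one level. Across its clusters Clu ranged from 225 CPM in cluster 4 (11 cells) and 320 CPM in cluster 6 (167 cells) to 15280 CPM in cluster 15 (378 cells). Spp1 was highest in cluster 14 (1166 CPM), whose leading genes include Ttr, Tff2 and Cym, and in cluster 15 (946 CPM), led by Tff1 and Psca, and it had 12.6 CPM in cluster 10. Nupr1 was highest in cluster 11 (1534 CPM), led by Tm4sf1 and Sprr1a, and had 84.5 CPM in cluster 14. Scara3, Sorbs2, Plet1, Rdh10 and Ly6g6c were highest in cluster 11 or 15. Sfn ran the other way, with 323 CPM in cluster 10, where the AT1 gene Ager still had 4564 CPM, and 51.2 CPM in cluster 14, where Ager had 15.8 CPM.

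**Figure D2:**
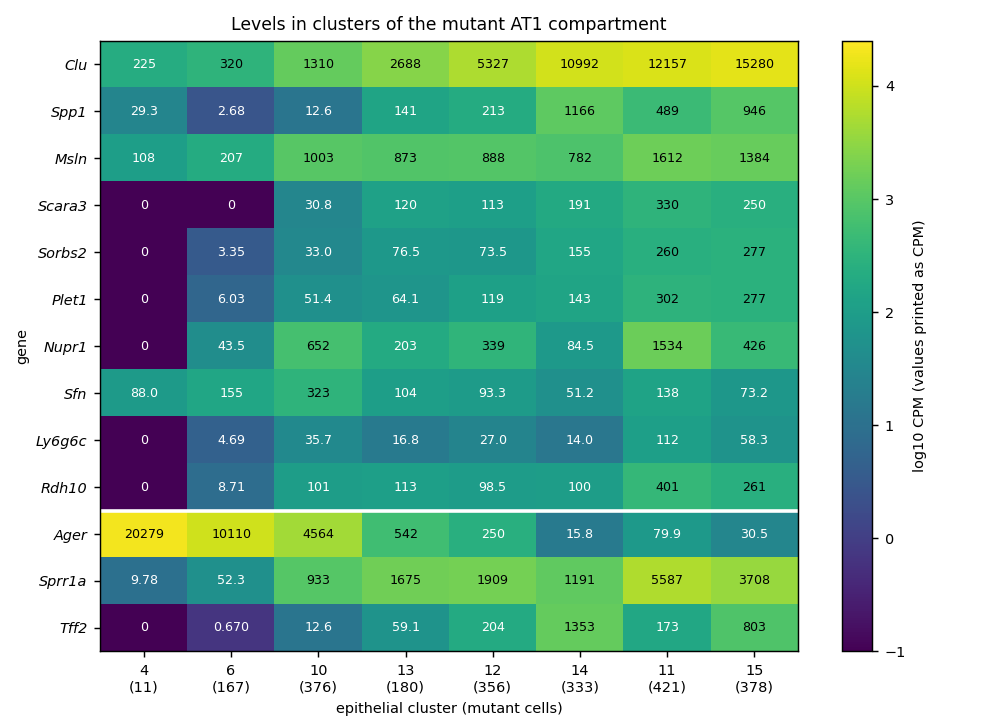
Levels (CPM, printed and coloured on a log10 scale) of the 10 genes and of Ager, Sprr1a and Tff2 in the 8 clusters of the mutant AT1 compartment, ordered by Clu, with the number of mutant cells under each cluster. Clu goes from 225 and 320 CPM in the Ager-high clusters 4 and 6 to 12157 and 15280 CPM in clusters 11 and 15, whereas Sfn is highest in cluster 10 (323 CPM).

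Cluster 6 was the only cluster of the compartment in which both libraries had more than 11 cells, with 18 control and 167 mutant cells, so the libraries could be compared there within a cluster. Clu was at 63.0 CPM (28.8 to 120, from 9 UMIs) in control cells and at 320 CPM (292 to 350) in mutant cells. Msln had 0 UMIs, which allows up to 21.0 CPM, and 207 CPM (185 to 231). Sfn had 119 CPM (69.3 to 191) and 155 CPM (136 to 177), intervals that overlap. Scara3 had 0 UMIs in both, and Spp1 0 and 4 UMIs. The levels of Clu and Msln were thus apart in this cluster, but far below those of the rest of the mutant compartment. Sftpc differed in the opposite direction, at 127571 CPM in control and 26782 CPM in mutant cells, as did Nkx2-1 (497 and 180 CPM). The part of Sftpc and Nkx2-1 in the result was not tested. Cluster 4, with 527 control and 11 mutant cells, also held both libraries. Msln had 86.8 CPM (77.3 to 97.0) and 108 CPM (53.7 to 193) there, intervals that overlap. Spp1 had 0 and 3 UMIs in cluster 4, and Scara3 0 UMIs in both libraries.

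Co-detection was counted in the 2222 mutant compartment cells after thinning each to 3500 UMIs, which left out none. The median cell had 4 of the 10 genes, 44.0% had at least 5, 2.75% had none and 5 cells had all 10. The control compartment had a median of 0, with none of the genes in 58.5% of its 496 cells of this depth (63 shallower cells were left out). Mutant endothelial cells also had a median of 0, and 57.2% of those 479 cells had none. The median was 2 in mutant club-like (25) and ciliated-like (43) cells, and 1 in mutant AT2-like, mesenchymal and immune cells. At least 5 genes were found in 4% of club-like, 4.65% of ciliated-like and 0.943% of AT2-like mutant cells. The count was highest in cluster 11, with a median of 6, then 5 in cluster 15 and 4 in cluster 14, and lowest in clusters 4 and 6, with a median of 1. By gene, the shares ran from 90.2% for Clu and 82.7% for Msln through 39.9% for Spp1, 37.8% for Nupr1, 37.2% for Scara3, 35.0% for Rdh10, 32.9% for Plet1, 31.9% for Sorbs2 and 26.5% for Sfn to 9.81% for Ly6g6c. In this order each interval from Spp1 to Sorbs2 overlaps that of the next gene.

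**Figure D3:**
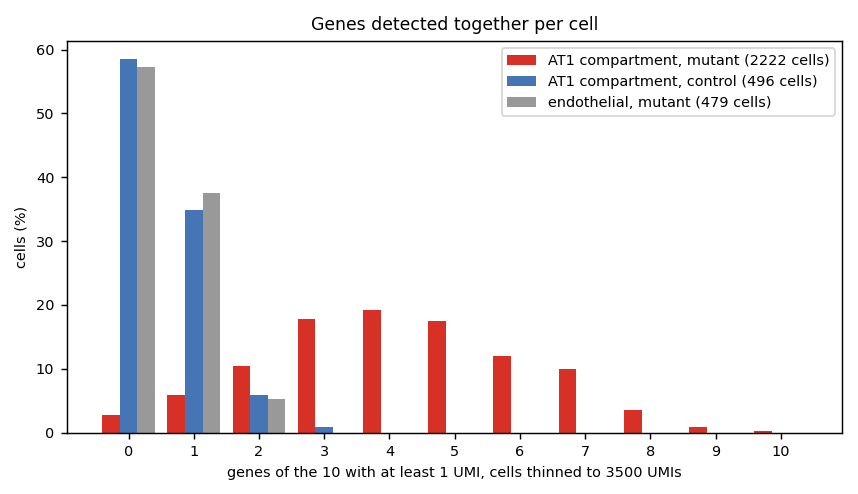
Percent of cells (vertical axis) by how many of the 10 genes had at least 1 UMI (horizontal axis) after thinning to 3500 UMIs, for mutant and control AT1 compartment cells and mutant endothelial cells. The mutant compartment centres on 4 genes, and the control compartment and mutant endothelial cells on 0.

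Clu spread over nearly all cells, whereas most Nupr1 UMIs lay in few of the cells that had it. At this depth a compartment cell had between 0 and 226 Clu UMIs, with a median of 17 and a 90th percentile of 64. The 10% of cells with most Clu held 38.4% of its UMIs. Nupr1 reached 160 UMIs in a cell while its median was 0, and the top 10% of cells held 72.7% of its UMIs. Msln was the most even, with 36.2% of its UMIs in the top 10% of cells.

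Clu and Spp1 went together in the sense that nearly every Spp1 cell was also a Clu cell. Both were detected in 39.6% (37.5 to 41.6) of the cells. Of cells with Spp1, 99.2% had Clu, against 84.3% of cells without it. Of cells with Clu, 43.8% (41.7 to 46.0) had Spp1, against 3.23% (1.31 to 6.53) of the 217 cells without it. Since Clu is so widespread, the informative direction is the second. Over cells Spearman's rank correlation of their thinned counts was 0.54, the highest of the 45 pairs.

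Of the 45 pairs, 37 were found together more often than apart from each other, that is, the second gene was more frequent in cells with the first than in cells without it. The rank correlation ranged from -0.17 to 0.54 with a median of 0.19. These are sparse counts from cells of 1 library, so low values are no finding and no p-value is given. Pairs of other genes were not counted in this way, so nothing is read from the 37 of 45. Clu also had a rank correlation of 0.49 with Msln, 0.44 with its chromosomal neighbour Scara3 and 0.43 with Plet1. Sfn was at the other end, with -0.17 against Spp1 and -0.15 against Clu. It was detected in 17.9% of cells with Spp1 and in 32.2% of cells without. Nupr1 and Spp1 had -0.09, and Nupr1 was seen in 33.6% of cells with Spp1 and 40.6% of those without.

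**Figure D4:**
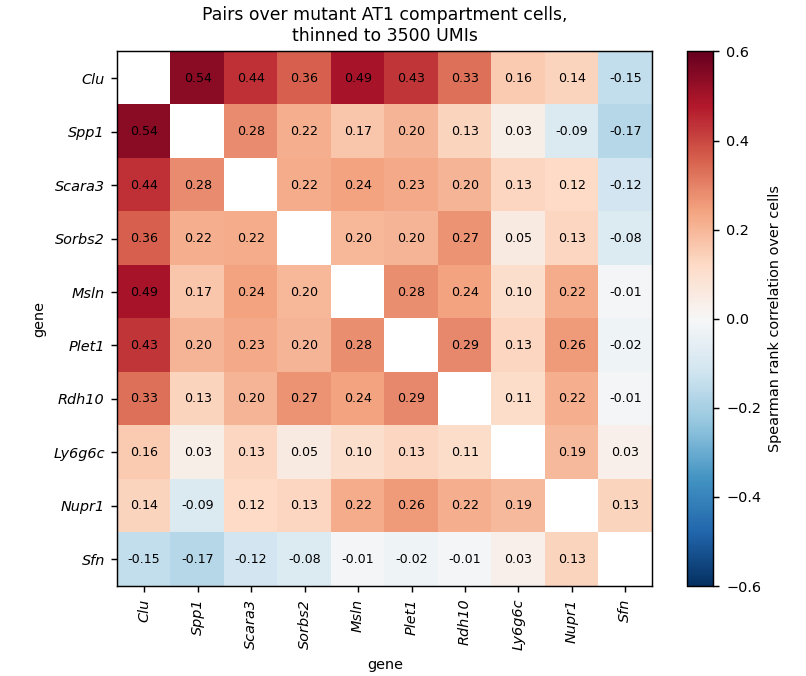
Spearman's rank correlation of thinned UMI counts for each pair of the 10 genes over 2222 mutant AT1 compartment cells (colour and printed value). The Clu row is positive for all genes but Sfn, and the Sfn row is near or below 0 for all but Nupr1.

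Most of the genes were more frequent in mutant cells with no UMI of Ager, the AT1 membrane receptor gene. Cells were put in 3 ranges of Ager UMIs after thinning, chosen after values were seen: 0 (1406 cells), 1 to 9 (439 cells) and 10 or more (377 cells). Clu was detected in 98.9%, 87.7% and 61.0% of these, Spp1 in 56.3%, 19.1% and 2.65%, and Scara3 in 50.1%, 25.7% and 2.12%. Sorbs2, Plet1 and Rdh10 followed the same order, from 42.0%, 42.5% and 42.4% down to 4.51%, 8.22% and 10.9%. Nupr1 was most frequent in the middle range (38.5%, 46.2% and 25.5%), and Sfn went the other way (20.3%, 32.6% and 42.4%). The ranges are not cell types, and 165 cells had exactly 1 Ager UMI and 88 had 8 to 11. Sftpc was at 290, 3477 and 10678 CPM in the same ranges and Nkx2-1 in 0.711%, 6.83% and 18.0% of cells, and their part in the pattern was not tested.

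**Figure D5:**
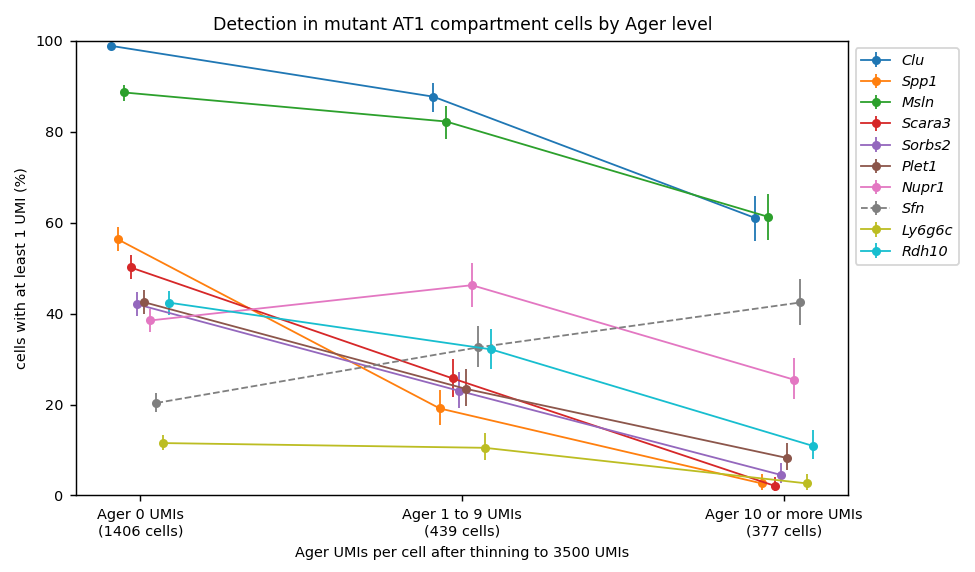
Percent of mutant AT1 compartment cells with at least 1 UMI of each gene (vertical axis, exact 95% intervals) in 3 ranges of Ager UMIs per thinned cell (horizontal axis). Spp1 drops from 56.3% to 2.65% as Ager increases, while Sfn (dashed) goes from 20.3% to 42.4%.

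Other reference genes divided the members in different ways. Of the 771 cells with the trefoil gene Tff2, a gastric mucus gene, 66.3% had Spp1, against 25.8% of cells without it, while Nupr1 (27.6% against 43.2%) and Sfn (17.3% against 31.4%) were less frequent with Tff2. Of the 1533 cells with Sprr1a, a cornified envelope gene, 45.1% had Nupr1, against 21.5% of cells without, and 12.9% had Ly6g6c, against 3.05%. Of the 280 cells with the proliferation gene Mki67, 22.9% had Nupr1 and 20.7% had Plet1, against 40.0% and 34.7% of the others. Of the 108 cells with an Nkx2-1 UMI, 67.6% had Clu and 41.7% had Msln, against 91.4% and 84.8% of the others.

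The genes most like each member, by Pearson's r of log counts over the same 2222 cells among 10133 genes, were in part the same. Clu was nearest to the glutathione transferase gene Gsta4 (0.73), the surface glycoprotein gene Cd24a (0.72) and Gsto1 (0.72), and farthest from Ager (-0.75). Spp1 was nearest to Plac8 (0.62), Cd24a (0.54) and the gut galectin gene Lgals4 (0.54). Msln was nearest to the cyclin gene Ccnd2 (0.52), Gsto1 (0.46) and Ctsd (0.44). Scara3 was nearest to Cd24a (0.54), Sema3c (0.53) and Tm4sf1 (0.49), Sorbs2 to Sema3c (0.49), Cd24a (0.48) and Tm4sf1 (0.46), and Plet1 to Tm4sf1 (0.55), Gsto1 (0.50) and Gsta4 (0.49). Rdh10 was nearest to Tm4sf1 (0.46), Sema3c (0.44) and Sprr1a (0.42), and Ly6g6c to Sprr1a (0.33), Sema3c (0.24) and Tm4sf1 (0.24). Nupr1 was nearest to the claudin gene Cldn4 (0.37), Sprr1a (0.37) and Tm4sf1 (0.36). Sfn alone was nearest to cytoskeletal genes, Myl12a (0.42), Tuba1a (0.40) and Anxa2 (0.38). All of these cells come from 1 library, and the counts were scaled per cell.

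Lists of related genes went with the members unevenly. Beside their counts stand the 21.8% of all genes that were at least 2-fold higher and the 12.3% that were lower. Of 20 genes of the damage-associated transitional epithelium, 11 were at least 2-fold higher in the mutant compartment and 3 lower, with a median log2 ratio of 1.65. Sprr1a had the largest ratio (0 and 2549 CPM, at least 3266-fold), Ctgf the smallest (123 and 43.4 CPM), and Krt7 the highest level by the mean of both libraries (2343 and 891 CPM). Of 11 other measured Ly6 and uPAR family genes, 8 were higher and 1 lower, with a median of 3.30, among them Ly6g6e, 6852 bases from Ly6g6c (1 UMI and 16.9 CPM), Ly6e (19.5 and 1101 CPM) and, lower, Cd59a (40.3 and 6.19 CPM). Of 9 measured retinoid genes 5 were higher and 0 lower, with a median of 1.13, including the retinol carrier Rbp4 (0 and 36.0 CPM), with Rdh11 at 12.5 and 7.65 CPM and the retinal reductase gene Dhrs3 at 25.2 and 44.8 CPM.

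Partners and relatives of the other members had medians nearer to 0 or below it. Of 8 measured osteopontin receptor genes 2 were higher and 3 lower, with a median of 0.01, from Itga5 (1 UMI and 1.62 CPM) to Itga9 (42.7 and 4.74 CPM), while the integrin gene Itgb1, the most abundant, had 317 and 349 CPM. The other 4 genes of the osteopontin family, Ibsp, Dmp1, Dspp and Mepe, had 0 UMIs in both compartments. Of 6 measured clusterin receptors and chaperone partners 2 were higher and 1 lower, from Lrp1 (0.781 and 5.06 CPM) to Apoe (44.0 and 3.89 CPM), with Hsp90b1 at 363 and 307 CPM. None of the 6 other 14-3-3 genes differed by 2-fold, from Ywhag (73.9 and 56.5 CPM) to Ywhaz (135 and 261 CPM), with Ywhae at 664 and 521 CPM. Of 11 genes of the integrated stress response, with which Nupr1 is often grouped, 1 was higher and 3 lower, with a median of -0.64, from Trib3 (9.11 and 0.973 CPM) to Atf5 (11.2 and 26.4 CPM), with Atf3 at 129 and 149 CPM. Sorbs3 had 10.4 and 10.2 CPM, and Scara5 had 0 and 29 UMIs.

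Msln is best known from the mesothelium, so the other mesothelial genes were looked at in the same cells. Wt1 and Lrrn4, which define that tissue, had 0 UMIs in the 2222 mutant compartment cells, and Muc16, which encodes a ligand of mesothelin, had 5. Upk1b (1.04 and 33.0 CPM) and Upk3b (0 and 9.86 CPM), also genes of other epithelia, were higher in the mutant, and Gpm6a was lower (19.5 and 1.04 CPM). Summed, 9 mesothelial markers came to 89.5 CPM of the control and 47.8 CPM of the mutant compartment. The sums were led by different genes, Igfbp6 in the control (67.7 CPM, against 2.14 CPM in the mutant) and Upk1b in the mutant. The lower sum is therefore not a fall of the markers as a set. A UMI of at least 2 of Wt1, Upk3b, Lrrn4 and Upk1b was found in 78 mutant cells, all of them epithelial and with Msln, and in 0 of 3924 control cells. Without thinning, 84.2% of all mutant epithelial cells had Msln. Wt1 and Lrrn4 had 0 UMIs in the mutant epithelium, so the 78 cells are those with both Upk3b and Upk1b.

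Chromosomal neighbours of the members were counted in the same contrast. Within 100 kb lay 60 genes with at least 20 UMIs, of which 19 were at least 2-fold higher and 2 lower, against 21.8% and 12.3% of all genes. Their median log2 ratio was 0.28, against 0.16. The interleukin gene Il18, 49345 bases from Plet1, had 0 UMIs in control and 175 CPM in mutant compartment cells, close to the 168 CPM of Plet1 itself. Mslnl, 283 bases from Msln, had 0 and 51 UMIs, against 33265 UMIs of Msln.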

How the data were processed

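RNA was measured in 1 control and 1 mutant library of mouse lung cells at postnatal day 10, grouped by the genotype labels. Each deposited value is a raw count of UMIs for 1 gene in 1 barcode, made by the authors with 3' version 2 chemistry, per the labels' protocols. The submitters' processing notes name Cell Ranger, Seurat and mm10. For their versions, the annotation and any filters the sources used here give nothing. The shallowest barcode had 2278 UMIs (control) and 3874 UMIs (mutant).

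Barcodes under 500 genes or from 10% mitochondrial counts upward were dropped, which kept 4141 and 4418. Doublets were scored with scanpy 1.11.5 (Python 3.11.15), and the score that marks the expected share (0.8% per 1000 cells) removed 142 control (3.43%) and 165 mutant cells (3.73%). Of the simulated doublets 60.4% and 58.2% scored above it, so some doublets will remain. Left out of the variable genes were the 10 members, listed cell cycle and sex-linked genes, and genes with mitochondrial, ribosomal protein or histone symbols. The 2000 variable genes entered 30 components, 20 neighbours and Leiden clustering (resolution 1, seed 1), by lineage and again within it. Clusters whose median cell showed 3 or more markers of a second lineage were set aside as mixed (75 and 101 cells). A cluster was named "-like" from a mean log2 fold of at least 1.5 over a type's markers, with at least 3 markers in at least 10% of its cells.

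Counts were summed per class and library and divided by the class total (CPM). Intervals at 95% were exact Poisson for levels, conditional binomial for ratios and Clopper-Pearson for shares (scipy 1.17.1). UMIs are not corrected for free RNA. A count of 0 took a floor of 3 counts over the class. Cells were thinned to 1500 UMIs for shares across libraries and to 3500 UMIs for co-detection. The code was tested on simulated counts. Gene positions are from the GENCODE annotation of mm10 and promoters from RefSeq.

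The members, gene lists and markers were chosen with earlier results of these data known. All members are described. Named beside them are, for each member, the 3 genes with the highest r among genes in at least 5% of cells, and, for each list, the genes with the largest ratio, the smallest ratio and the highest level by the mean of both libraries. Genes named outside this rule (Il18, Mslnl and G6b) were picked after their values were seen. The alternatives tried are doublets kept, a mitochondrial limit of 5%, all epithelial cells, cells classed one by one, means over cells, free RNA subtracted, cells over 20000 UMIs left out, no count minimum, other thinning depths and another seed. Leaving out cluster 5 was added after seeing the data.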

Additional observations from a re-analysis of the deposited data

Results flagged for a closer look

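Sfn had the lower level in the mutant in some classes and the higher level in others. The mutant-to-control ratio was 0.184 (0.0864 to 0.351) in club-like cells, 0.295 (0.148 to 0.535) in ciliated-like cells and 0.586 (0.338 to 0.978) in immune cells, against 2.52 (2.18 to 2.93) in the AT1 compartment. Each class has 1 sample per group, and the difference between classes was not tested. In immune cells the makeup differed too, since B cell-like cells, where Sfn was at 72.9 CPM in control and 117 CPM in mutant cells, were 138 of 323 control and 29 of 172 mutant immune cells. The part of this in the immune ratio was not tested.

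Cells set aside because they carried markers of more than 1 lineage also held the genes. Clu had 5571 CPM and Spp1 441 CPM in the 101 such mutant cells, against 13.9 and 8.34 CPM in the 75 such control cells. These cells are in no comparison of the report.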

How the results depend on the processing

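All 10 genes were at least 2-fold higher in the mutant compartment under each alternative with the compartment's definition kept or with cells classed one by one. Over all epithelial cells 9 were, Nupr1 (0.76 in log2) being the exception. No log2 ratio changed sign. Nupr1 depended most on the choice of cells, at 5.31 in the main analysis, 3.96 with doublets kept, 5.88 as a mean over cells, 6.51 with cells classed one by one, 6.45 with free RNA subtracted and 7.18 without cluster 5. Over all epithelial cells the log2 ratios were 5.38 for Msln, 6.24 for Sorbs2, 4.03 for Plet1, 3.12 for Ly6g6c (5.13 in the compartment), 3.98 for Rdh10 (4.77 in the compartment) and 12.90 for Spp1, which has 1 UMI in the control epithelium. With free RNA subtracted, Rdh10 had 6.34. With a mitochondrial limit of 5% Scara3 had 7.52 in place of 7.84, both lower bounds.

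Co-detection followed the depth. The median number of genes per cell was 3 after thinning to 1500 UMIs, 6 without thinning and 3 where 2 UMIs were needed. The share of cells with Clu and Spp1 together was 28.6% at 1500 UMIs, 52.7% without thinning, 27.7% where 2 UMIs were needed and 35.3% over all epithelial cells of the mutant. Another seed and kept doublets moved neither.

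No paired analysis was possible because each group has 1 library. Animals cannot be compared, and intervals cover counting error only. At a median of 6512 UMIs a cell, the control compartment's 0 UMIs of Spp1 and Scara3 allow a level of up to 0.781 CPM (3 counts).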
